A study of Homo sapiens with 8 samples.

Results

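Low oxygen turns on genes for proteins that cells release to call in blood vessels and to adjust their own metabolism. The genes described here encode 9 secreted factors linked to vessels or stress, taken by name from the expression table of the SK-N-MC line. Being on this list does not mean that a gene responds to low oxygen. They are the vascular endothelial growth factors VEGFA, VEGFB and VEGFC, the vasoactive peptides ADM and EDN1, the stanniocalcins STC1 and STC2, the angiopoietin-like protein ANGPTL4 and the cytokine MIF. All 9 were found once among the 60332 genes of the table. A gene was tested if it reached at least 1 FPKM (sequenced fragments per kilobase of transcript, corrected for library size) in at least 2 of the 8 libraries. This left 15372 genes and 7 of the 9 factors. VEGFC and EDN1 stayed below the filter.

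SK-N-MC is an established Ewing sarcoma line that carries the EWSR1::FLI1 fusion, a transcription factor that builds enhancers on GGAA repeats. By the growth protocol in the labels, every group carried the lentiviral repressor dCas9-KRAB, was infected at a multiplicity of 10 and was selected with puromycin at 1 µg/ml for 3 days. Control cells had the vector without a targeting guide by the same protocol, while the study's text speaks of parental cells, and were kept in normoxia (2 libraries) or for 16 h in a chamber with 1% O2 (2 libraries). In eKD1 and eKD2 cells, independent guides placed the repressor at the GGAA site of the LOXHD1 enhancer, and both pools were sampled after the same 16 h of hypoxia (2 libraries each). The knockdown cells were pools and not single clones, and cells within 5 passages of selection were used. Knockdown cells in normoxia were not analysed here, so whether a knockdown changes the response to oxygen itself could not be tested.

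In most cells, hypoxia stabilises the HIF transcription factors, which bind short motifs with the core ACGTG or GCGTG near their targets. VEGFA is the classical secreted target and acts on receptors of endothelial cells. ADM relaxes vessels and supports vascular integrity, ANGPTL4 inhibits lipoprotein lipase, stanniocalcins are glycoprotein hormones tied to calcium, phosphate and stress responses, and MIF is a cytokine with tautomerase activity. STC2 is also a known target of the endoplasmic reticulum stress response, in which the factor ATF4 takes part.

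The promoters of the factors that rose in hypoxia are shown because they share the same direction of change in these libraries. RefSeq windows on GRCh38.p14, from 250 bases before to 50 bases after the start site, were at hand for 7 of the 9 factors, with 3 windows for EDN1. VEGFA and STC1, which also rose, had no window and are not covered. Each sequence is given 5′ to 3′ on the strand of the gene, with the core ACGTG in capitals, and likewise the core GCGTG and the box TATAAA, on either strand. The windows are chr11:10304823-10305122 (plus strand) for ADM, chr19:8363905-8364204 (plus) for ANGPTL4, chr5:173328365-173328664 (minus) for STC2, chr22:23894133-23894432 (plus) for MIF and chr11:64234334-64234633 (plus) for VEGFB.
ADM: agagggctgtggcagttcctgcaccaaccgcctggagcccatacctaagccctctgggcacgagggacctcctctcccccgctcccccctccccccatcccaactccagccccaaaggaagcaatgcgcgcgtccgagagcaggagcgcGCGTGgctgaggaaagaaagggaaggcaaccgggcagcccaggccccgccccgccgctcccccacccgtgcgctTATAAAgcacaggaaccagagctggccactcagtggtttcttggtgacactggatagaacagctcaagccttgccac
ANGPTL4: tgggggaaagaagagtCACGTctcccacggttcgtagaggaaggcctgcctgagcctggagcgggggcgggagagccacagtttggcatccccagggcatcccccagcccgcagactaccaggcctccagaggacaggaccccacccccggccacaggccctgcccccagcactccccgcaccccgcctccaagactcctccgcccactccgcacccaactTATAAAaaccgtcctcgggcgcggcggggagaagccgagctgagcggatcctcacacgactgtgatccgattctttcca
STC2: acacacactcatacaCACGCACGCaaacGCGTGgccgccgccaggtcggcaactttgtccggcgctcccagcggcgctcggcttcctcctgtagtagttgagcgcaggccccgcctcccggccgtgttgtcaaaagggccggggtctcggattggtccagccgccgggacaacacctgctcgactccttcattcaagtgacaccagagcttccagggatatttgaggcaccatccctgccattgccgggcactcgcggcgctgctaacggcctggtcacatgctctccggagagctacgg
MIF: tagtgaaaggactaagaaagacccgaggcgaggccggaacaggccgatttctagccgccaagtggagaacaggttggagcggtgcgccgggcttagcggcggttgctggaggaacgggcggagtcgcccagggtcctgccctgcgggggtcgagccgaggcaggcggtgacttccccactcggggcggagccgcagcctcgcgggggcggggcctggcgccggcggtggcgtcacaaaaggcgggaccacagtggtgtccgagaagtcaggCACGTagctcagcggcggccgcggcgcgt
VEGFB: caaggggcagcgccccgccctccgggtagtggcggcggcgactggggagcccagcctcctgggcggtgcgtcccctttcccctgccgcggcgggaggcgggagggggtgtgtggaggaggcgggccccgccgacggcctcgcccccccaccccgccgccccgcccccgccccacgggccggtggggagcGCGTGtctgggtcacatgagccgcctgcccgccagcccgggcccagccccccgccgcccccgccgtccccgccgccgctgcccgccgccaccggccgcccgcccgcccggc

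The motif ACGTG or GCGTG stood in 8 of the 9 windows, against 48.4% of all 35116 windows in the table. Each of the 7 factors with a window had it in at least 1 window, where EDN1 could match in any of its 3 windows. The share of all genes with a match in at least 1 window was not computed. ACGTG was found in 4 of the 9 windows (3 factors) and in 21.4% of all windows, and GCGTG in 5 of the 9 (5 factors) and in 36.5%. These motifs can overlap each other across strands, as in a CACGTG stretch. ADM held GCGTG at −101, VEGFB at −61 and STC2 at 3 places between −235 and −218, counted from the start site. ANGPTL4 held ACGTG on the opposite strand at −234, and MIF held it after its start site at +22. The TATAAA letters stood at −27 in ADM and at −29 in ANGPTL4, as well as in 1 window of EDN1, and in 11.5% of all windows. GGAAGGAA, the unit that EWSR1::FLI1 prefers in repeats, was in none of the 9 windows (3.67% of all), nor was TGATGNAA, an ATF4-type element (3.62%). VEGFC and EDN1, which were near 0 FPKM in every group, also held ACGTG or GCGTG.

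The levels spanned more than 4 orders of magnitude. FPKM divides by transcript length, so levels of different genes can be set side by side. In control normoxia MIF was highest (694 and 850 FPKM), followed by VEGFB (54.1 and 58.8), VEGFA (45.3 and 40.5), STC2 (24.8 and 25.1) and ANGPTL4 (19.1 and 20.1). ADM (1.23 and 0.639 FPKM) and STC1 (0.0582 and 0.119) were in the lowest 10% of tested genes by level, and no neighbours in this order overlapped. MIF held 84.1% of the summed FPKM of the 9 factors in control normoxia and 75.6% in eKD2 hypoxia. In control hypoxia VEGFA moved to the second place, and STC2 (84.9 and 91.0 FPKM) and VEGFB (94.4 and 75.4) could not be ordered because their libraries overlapped. In eKD1 hypoxia this held for VEGFB (80.0 and 75.6 FPKM) and ANGPTL4 (71.1 and 76.8), and in eKD2 hypoxia for STC2 (158.1 and 152.6) and VEGFA (157.9 and 145.9).

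**Figure D1:**
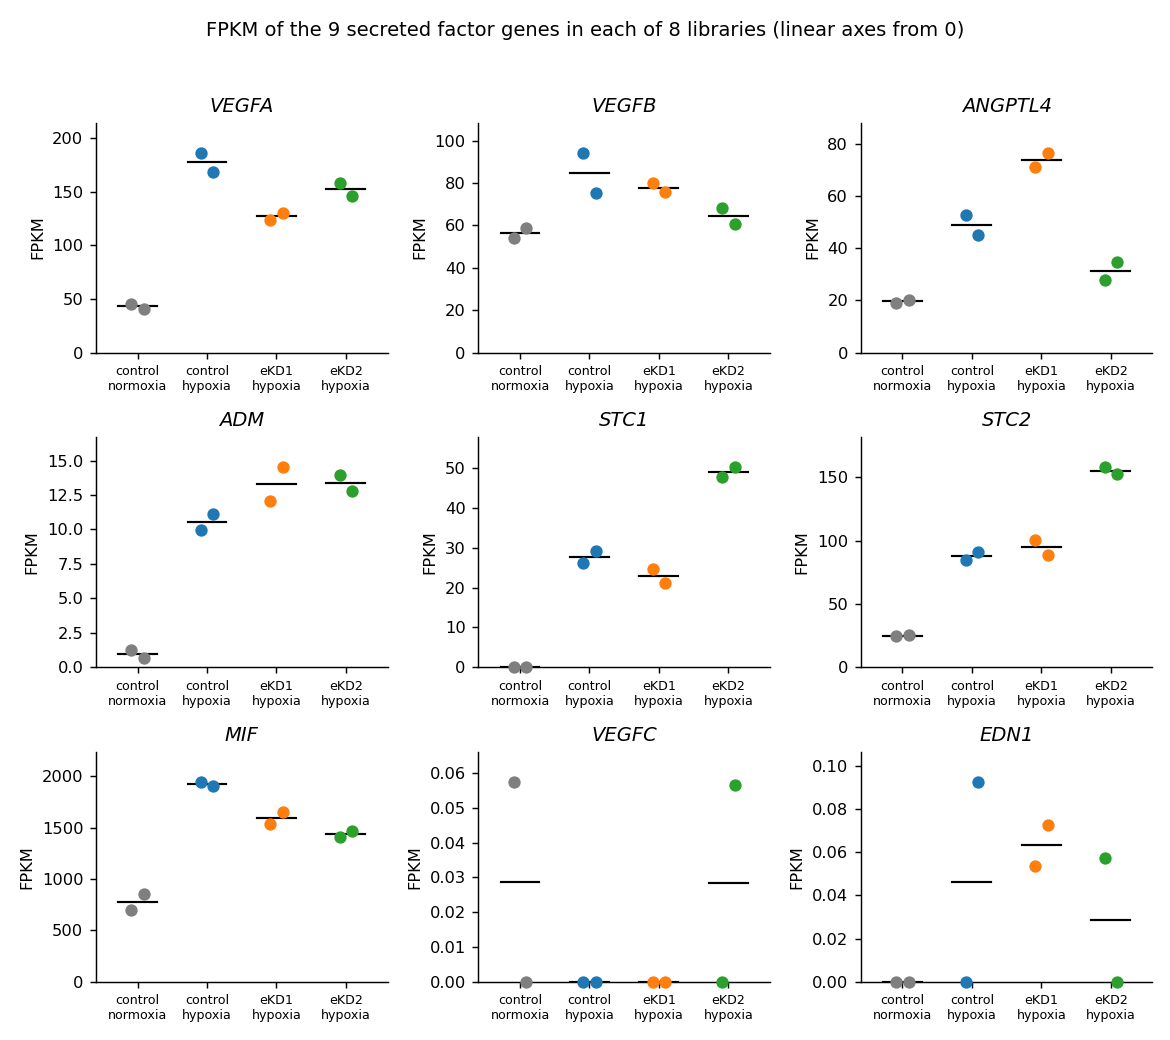
FPKM of each of the 9 secreted factor genes (vertical axes, linear, from 0) in the 4 groups (horizontal axis). Each point is 1 library and each black line the mean of 2 libraries. In 7 of the panels the normoxia points lie below all hypoxia points, while VEGFC and EDN1 stay under 0.1 FPKM throughout. Both libraries lay above both normoxia libraries in 35.9% of all tested genes for control hypoxia, 31.9% for eKD1 and 37.5% for eKD2.

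Column totals ranged from 865107 FPKM in a control normoxia library to 1041457 in a control hypoxia library. The absolute depth is unknown, and relative depth read from the smallest steps of the values was 55.7% and 76.0% of the deepest library in control normoxia and 61.2% to 100% in hypoxia. LOXHD1, the target of the guides, had 155.8 and 168.5 FPKM in control normoxia, 93.0 and 91.1 in control hypoxia, 17.3 and 15.0 in eKD1 and 11.7 and 11.8 in eKD2. Its difference from control hypoxia was −2.44 ± 0.10 (SE) on the log2(FPKM + 1) scale in eKD1 and −2.87 ± 0.07 in eKD2, and both passed the test. All 12 Ewing sarcoma markers looked at passed the filter, with sums of 1228 to 1494 FPKM per library, and in control hypoxia 8 of them were called lower and 2 higher, beside 16.0% and 16.2% of all tested genes. Endothelial markers summed to 4.45 to 5.86 FPKM, with SOX18 at 2.02 to 4.32, EMCN at 0 to 2.02, and TEK, ROBO4 and SOX17 listed at 0 in all libraries and CDH5 at no more than 0.821 FPKM. Of 5 haematopoietic markers, CD3E was listed at 0 throughout and the sum was 22.0 to 35.4 FPKM. Most of it was PTPRC and CD79A, and the paper counts CD79A among its Ewing sarcoma-specific genes regulated by the fusion. From control normoxia to control hypoxia PTPRC fell from 22.5 and 23.8 FPKM to 4.87 and 5.39. CD79A went the other way, from 11.0 and 11.1 FPKM to 14.2 and 17.4, as did CD68, from 1.65 and 0.157 to 2.93 and 5.98. Fibroblast markers summed to 279.6 to 343.6 FPKM, and COL1A1 and COL3A1 rose in control hypoxia. The part of these marker changes in the results below was not tested. Within a bulk library, fewer cells making a transcript and less of it per cell cannot be told apart.

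The first comparison asked which factors change in control cells when oxygen falls. All 7 tested factors were higher in control hypoxia than in control normoxia, at an adjusted p under 0.05 by limma over all 15372 genes. Among all tested genes 16.2% were called higher and 16.0% lower. The median change of the 7 factors was 1.78 on the log2(FPKM + 1) scale, against 0.01 over all genes tested. STC1 and ADM did not reach 1 FPKM in both control normoxia libraries and passed the filter through hypoxia libraries. Without a rise STC1 would not have been tested and ADM might not, so the count of 7 and the median depend on the filter. The same holds for the knockdown groups against control normoxia below. Of all called genes 50.3% were higher in the deposited values and 28.4% with equal FPKM totals, a scaling that moved the median of all genes to −0.19 and left all 7 factors above 0. Fits on the 3 libraries that remain without 1 of them called no gene at all. Neither VEGFC nor EDN1 could be tested.

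Among the vascular growth factors, VEGFA (GRCh37 chr6:43737921-43754224, plus strand) had 45.3 and 40.5 FPKM in control normoxia and 186.2 and 167.8 in control hypoxia. Both hypoxia libraries were far above both normoxia libraries, and the group means differed 4.13-fold. On the log2(FPKM + 1) scale the rise was 2.02 ± 0.09 (SE, adjusted p = 0.00653, limma). VEGFB (chr11:64002056-64006736, plus), a relative with a role in fatty acid handling and vessel survival, had 54.1 and 58.8 FPKM in normoxia and 94.4 and 75.4 in hypoxia. These libraries did not overlap either, but the rise was small, 0.57 ± 0.13 (SE, adjusted p = 0.0464). VEGFB was not called with equal FPKM totals, without the filter, with the replicate number as a block or without a variance trend (adjusted p = 0.109, 0.139, 0.0878 and 0.0706). In fits of all 8 libraries with 1 left out, VEGFB lost its call without the first control normoxia library (adjusted p = 0.0659) and without the first control hypoxia library (adjusted p = 0.0537), and the other 6 factors kept theirs in 4 of 4. VEGFC (chr4:177604689-177714076, minus), the lymphatic growth factor, was listed at 0.0575 FPKM in 1 normoxia library and 0.0567 in 1 eKD2 library, and at 0 in the other 6. After scaling by depth these 2 values were equal, as 1 read each would give.

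VEGFA shares 188 exon bases with AL136131.3, a transcript of the opposite strand listed at 44.1 and 0 FPKM in the 2 eKD1 libraries and at 5.34 to 33.8 FPKM in the others. The kit did not keep the strand, so reads in the shared stretch cannot be assigned to either gene from the data used here.

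Among the vasoactive peptides, ADM (chr11:10326620-10328944, plus) had 1.23 and 0.639 FPKM in control normoxia and 9.97 and 11.1 in control hypoxia. The lower hypoxia library was thus still well above the higher normoxia library. The rise was 2.59 ± 0.22 (SE, adjusted p = 0.00852) on the log2(FPKM + 1) scale, and the group means differed 11.3-fold. A pseudocount of 1 understates changes of so low a gene, and with 0.1 the rise was 3.42. EDN1 (chr6:12290594-12297427, plus), which encodes the vasoconstrictor endothelin 1, had no FPKM above 0 in normoxia, and had 0 and 0.0927 FPKM in control hypoxia. In eKD1 it had 0.0538 and 0.0728 FPKM and in eKD2 0.0574 and 0. The 4 values above 0 lay at 1, 1, 1 and 2 times the same step after scaling by depth, so EDN1 was at the limit of what these libraries detect.

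The stanniocalcins differed most in their starting level. STC1 (chr8:23699442-23712319, minus) had 0.0582 and 0.119 FPKM in control normoxia and 26.2 and 29.1 in control hypoxia. Both normoxia libraries were nearly empty and the control hypoxia mean lay above that of 67.9% of tested genes. The rise of 4.72 ± 0.14 (SE, adjusted p = 0.00386) ranked 15 of 15372 genes, and it grew to 7.22 with a pseudocount of 0.1. After scaling by depth the smaller normoxia value was to the larger as 2 to 3, which reads as 2 and 3 reads at the least. On that reading the ratio of hypoxia to normoxia was 329, with an exact 95% interval of 141 to 1015 that covers counting error only. STC2 (chr5:172741726-172755450, minus) was already present in normoxia (24.8 and 25.1 FPKM) and had 84.9 and 91.0 FPKM in control hypoxia. Its libraries were tight within each group, and the rise was 1.78 ± 0.07 (SE, adjusted p = 0.00622).

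ANGPTL4 (chr19:8428173-8439254, plus) had 19.1 and 20.1 FPKM in control normoxia and 52.6 and 45.1 in control hypoxia, a rise of 1.27 ± 0.11 (SE, adjusted p = 0.00868). MIF (chr22:24236570-24237414, plus) had 694 and 850 FPKM in normoxia and 1946 and 1910 in hypoxia, a rise of 1.33 ± 0.11 (SE, adjusted p = 0.00852). For both genes the higher normoxia library was below the lower hypoxia library. MIF was in the top 1% of tested genes by level in every group. Its antisense transcript MIF-AS1, which shares 687 exon bases with it, was listed at 0.743 to 2.09 FPKM only. In the table ANGPTL4 is listed under a locus shared with RAB11B, which had 48.9 to 68.7 FPKM and was lower in both control hypoxia libraries than in both control normoxia libraries.

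**Figure D2:**
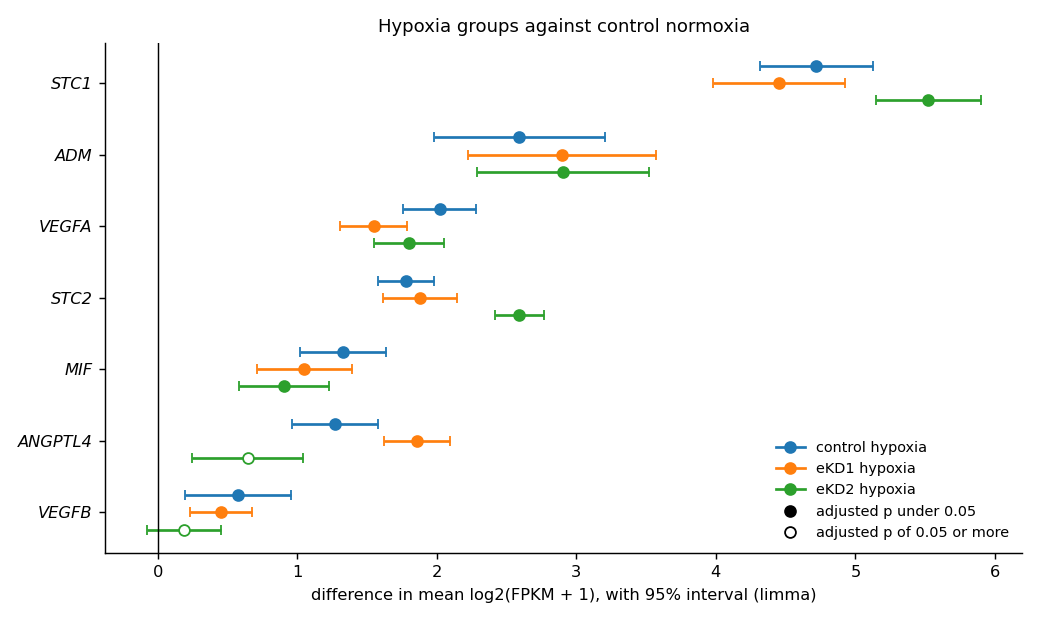
Difference in mean log2(FPKM + 1) from control normoxia (horizontal axis) for the 7 tested factors (vertical axis) in control, eKD1 and eKD2 hypoxia. Bars are 95% intervals from limma and filled points passed an adjusted p under 0.05. All 21 points lie to the right of 0, and the open points are VEGFB and ANGPTL4 in eKD2 hypoxia.

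The next comparisons asked whether the factors were also above control normoxia when the enhancer of LOXHD1 was repressed. They share the normoxia libraries with the comparison above, so they are not independent of it. In eKD1 hypoxia 7 of 7 tested factors were called higher (6.06% of all tested genes higher and 4.75% lower), from 0.46 ± 0.08 (SE) for VEGFB to 4.45 ± 0.17 for STC1. With the replicate number as a block, or without the filter, no factor was called in this comparison. Without a variance trend VEGFB (adjusted p = 0.0886) and MIF (adjusted p = 0.0575) were not called. VEGFB also lost its call with equal FPKM totals (adjusted p = 0.0714) and in all 4 fits of all 8 libraries with 1 left out (adjusted p = 0.0899 to 0.153). In eKD2 hypoxia 5 of 7 were called higher (11.5% of all tested genes higher and 7.83% lower), and with the block 3 were. MIF was not called without the filter (adjusted p = 0.0814). With equal FPKM totals the share of calls that were higher went from 56.1% to 30.1% in eKD1 and from 59.5% to 41.4% in eKD2, and to 49.1% in eKD2 after median-of-ratios rescaling. STC1 rose by 5.52 ± 0.13, ADM by 2.91 ± 0.22, STC2 by 2.59 ± 0.06, VEGFA by 1.80 ± 0.09 and MIF by 0.91 ± 0.11. ANGPTL4 (27.9 and 34.9 FPKM in eKD2 hypoxia) differed from control normoxia by 0.64 ± 0.14 (adjusted p = 0.0546, limma) and VEGFB (68.2 and 60.9 FPKM) by 0.19 ± 0.09 (adjusted p = 0.232). ANGPTL4 was called in the fit of all 8 libraries (adjusted p = 0.0136) and among protein-coding genes alone (adjusted p = 0.0265). Both eKD2 libraries of these genes were above both normoxia libraries, a position that 37.5% of all tested genes shared.

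Against control cells in the same hypoxia, repression with guide 1 gave no factor that passed the test. The counts at an adjusted p under 0.05 by limma were 0 of 7 factors, 0.0130% of all tested genes higher and 0.0520% lower. An unadjusted p under 0.05 was found for 3 of 7 factors, beside 3337 of all 15372 tested genes. VEGFA had 123.9 and 130.3 FPKM in eKD1, below both control hypoxia libraries, a difference of −0.47 ± 0.07 (SE, adjusted p = 0.117). In the fit of all 8 libraries with a shared spread VEGFA was called (adjusted p = 0.0375), but in none of the 4 fits of that kind without 1 library. ANGPTL4 had 71.1 and 76.8 FPKM, above both control hypoxia libraries, a difference of 0.59 ± 0.10 (adjusted p = 0.120). MIF had 1533 and 1653 FPKM, below both, a difference of −0.28 ± 0.05 (adjusted p = 0.125). Of all tested genes 26.0% lay below both control hypoxia libraries in eKD1 and 27.6% above both. For STC2 (100.7 and 88.6 FPKM) and VEGFB (80.0 and 75.6 FPKM) the groups overlapped, and the 95% intervals of the differences ran from −0.15 to 0.36 and from −0.49 to 0.25. ADM (12.1 and 14.5 FPKM) and STC1 (24.6 and 21.1 FPKM) differed by 0.30 ± 0.14 and −0.27 ± 0.12.

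With guide 2 the stanniocalcins were higher and MIF was lower than in control hypoxia. Of the 7 factors 2 were called higher and 1 lower, against 5.80% and 3.81% of all tested genes. STC1 had 47.7 and 50.2 FPKM in eKD2 against 26.2 and 29.1 in control hypoxia, a difference of 0.80 ± 0.09 (SE, adjusted p = 0.0310, limma). STC2 had 158.1 and 152.6 FPKM against 84.9 and 91.0, a difference of 0.81 ± 0.06 (adjusted p = 0.0273). Both genes stood at 177% of their control hypoxia mean, with every eKD2 library above every control hypoxia library. This position held for 35.8% of all tested genes, and the opposite one for 26.4%. MIF had 1413 and 1469 FPKM against 1946 and 1910, a difference of −0.42 ± 0.04 (adjusted p = 0.0284). All 3 calls were lost with the replicate number as a block (adjusted p = 0.0925 for each) and without a variance trend, and STC1 and MIF also without the filter. In the fits of all 8 libraries with 1 left out, STC2 was called in 4 of 4. STC1 was not called without the first control hypoxia library (adjusted p = 0.0638) or the second eKD2 library (adjusted p = 0.0563), and MIF in none of the 4 (adjusted p = 0.0993 to 0.139).

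The other factors did not pass the test with guide 2. ANGPTL4 had 27.9 and 34.9 FPKM, below both control hypoxia libraries, a difference of −0.63 ± 0.15 (SE, adjusted p = 0.0831, limma). It was called in the fit of all 8 libraries (adjusted p = 0.0240) and among protein-coding genes alone (adjusted p = 0.0416). VEGFA (157.9 and 145.9 FPKM) and VEGFB (68.2 and 60.9 FPKM) lay below both of their control hypoxia libraries, with 95% intervals of the difference from −0.45 to 0.01 and from −0.78 to 0.01. ADM (13.9 and 12.8 FPKM) lay above both, with an interval from −0.02 to 0.65. Of all tested genes 26.4% lay below both control hypoxia libraries in eKD2 and 35.8% above both. The split of all calls in this comparison depended on the scaling, with 60.3% of called genes higher in the deposited values, 46.3% after median-of-ratios rescaling and 77.5% with equal FPKM totals. The 3 called factors kept their direction and their call under both.

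**Figure D3:**
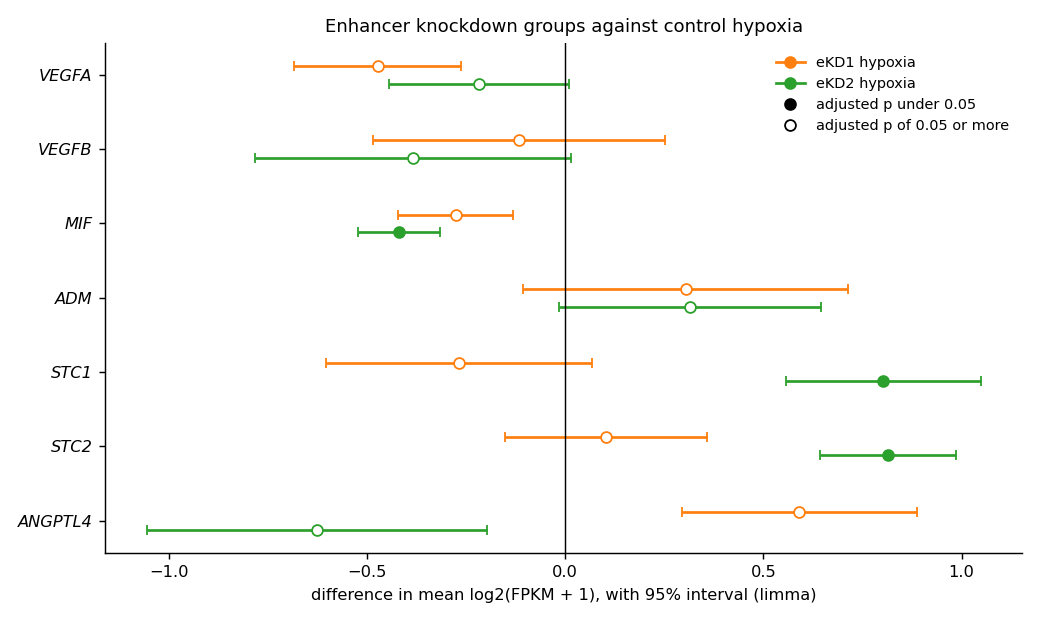
Difference in mean log2(FPKM + 1) between each knockdown group and control hypoxia (horizontal axis) for the 7 tested factors (vertical axis). Bars are 95% intervals from limma, and filled points passed an adjusted p under 0.05. STC1, STC2 and MIF in eKD2 are filled, and ANGPTL4 lies at 0.59 in eKD1 and at −0.63 in eKD2.

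When both knockdown groups were set against control hypoxia in a fit of these 6 libraries, STC2 was called higher and VEGFA and MIF lower (5.81% of all tested genes higher and 3.84% lower). VEGFA differed by −0.35 ± 0.07 (SE, adjusted p = 0.0429, limma) and MIF by −0.35 ± 0.04 (adjusted p = 0.0195). For each gene all 4 knockdown libraries were below both control hypoxia libraries. Over all tested genes they were below both in 13.7% and above both in 17.7%. With equal FPKM totals VEGFA was at −0.26 and not called (adjusted p = 0.0763). STC2 differed by 0.46 ± 0.07 (adjusted p = 0.0280), with both eKD2 libraries above control hypoxia and the eKD1 libraries overlapping it. ADM was higher in all 4 knockdown libraries (12.1 to 14.5 FPKM against 9.97 and 11.1) and did not pass the test, with a difference of 0.31 ± 0.12 (adjusted p = 0.164). With the replicate block, MIF alone was called (adjusted p = 0.0458), and no factor was called without the filter or without a variance trend. With 1 of the 6 libraries left out, no factor was called in this fit, and in the fit of all 8 libraries STC2 alone was called, in 4 of 6 cases, but not without the first (adjusted p = 0.115) or the second (adjusted p = 0.0781) control hypoxia library. Of all called genes 60.2% were higher, against 47.2% after median-of-ratios rescaling and 79.5% with equal FPKM totals, under which the direction of the 3 called factors did not change.

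The guides were also compared with each other. None of the 7 factors passed this test (beside 0.286% of all tested genes called higher with guide 2 and 0.117% lower). An unadjusted p under 0.05 was found for 5 of them, beside 3623 of all 15372 tested genes. The largest differences were −1.22 ± 0.13 (SE, adjusted p = 0.0776, limma) for ANGPTL4, 1.07 ± 0.11 (adjusted p = 0.0690) for STC1 and 0.71 ± 0.08 (adjusted p = 0.0779) for STC2. For each of them both libraries of one guide were above both of the other. Over all tested genes both eKD2 libraries were above both eKD1 libraries in 31.9% and below both in 23.3%. In the fit of all 8 libraries the 3 genes were called, with adjusted p of 0.00674, 0.00743 and 0.00792, and among protein-coding genes alone they were called as well. With the replicate block they were not (adjusted p = 0.207 for each). In the fits of all 8 libraries with 1 left out, ANGPTL4 lost its call without the second eKD1 library (adjusted p = 0.0537), and STC1 and STC2 lost theirs without either eKD2 library (adjusted p = 0.0527 to 0.0598). For ADM the difference was 0.01 with a 95% interval from −0.39 to 0.41, and for MIF −0.14 with an interval from −0.31 to 0.02.

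Across the 8 libraries, the genes that followed each factor most closely were named as a description. The correlations are of log2(FPKM + 1) over the same 8 libraries, in which the step from normoxia to hypoxia is the main source of spread, and they carry no test. STC1 ran closest to EGLN1 (r = 0.998), the prolyl hydroxylase that marks HIF for degradation and is itself a HIF target. ADM ran closest to the adenylate kinase AK4 (r = 0.996), and STC2 to PPP1R26 (r = 0.997) with the hexokinase HK2 second (r = 0.996). For VEGFA the first was ASPH (r = 0.997), an aspartyl hydroxylase of the endoplasmic reticulum. ANGPTL4 ran closest to CNIH2 (r = 0.991), followed by PDIA4 (r = 0.980) and CALR (r = 0.979), which both encode chaperones of the endoplasmic reticulum. MIF ran closest to IER5L (r = 0.996), and VEGFB, with the loosest match, to CENPW (r = 0.97). Among the factors themselves STC1 and STC2 correlated at 0.984, STC1 and VEGFA at 0.966 and ANGPTL4 and STC2 at 0.564.

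Receptors, co-receptors and processing partners of the factors formed a list of 29 genes, of which 15 were tested. In control hypoxia 3 were called higher and 2 lower, beside 16.2% and 16.0% of all tested genes, and the median change of the 15 was 0.26 against 0.01. PAM, the enzyme that amidates adrenomedullin and other peptides, rose from 26.6 and 36.2 FPKM in control normoxia to 92.3 and 78.3 in control hypoxia (1.42 ± 0.19, SE). DDT, a paralogue of MIF, rose from 104.5 and 132.9 FPKM to 215.0 and 183.8 (0.75 ± 0.15). The neuropilin NRP1, a co-receptor of VEGFA, fell from 9.30 and 14.9 FPKM to 2.59 and 3.11, a change of −1.74 ± 0.27. The endothelin receptor gene EDNRA fell from 26.4 and 31.5 FPKM to 14.5 and 10.4 (−1.17 ± 0.20). In eKD1 hypoxia 0 of the 15 were called against control hypoxia, beside 0.0130% of all tested genes higher and 0.0520% lower. Against the same control, 1 of the 15 was called higher and 1 lower in eKD2, beside 5.80% and 3.81% of all tested genes. In eKD2 hypoxia ADM2, a peptide of the adrenomedullin family, rose from 2.10 and 1.76 FPKM in control hypoxia to 10.3 and 9.85 (1.92 ± 0.14, adjusted p = 0.0273, limma), while its eKD1 libraries had 1.79 and 1.96. ITGB1, an integrin subunit, fell by 0.42 in eKD2.

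A second list held 42 other secreted or matrix factors linked to vessels or stress, with 19 tested. In control hypoxia 5 were called higher and 2 lower (26.3% and 10.5%, beside 16.2% and 16.0% of all tested genes), with a median change of 0.14. LOX, which crosslinks collagen, rose from 11.6 and 13.2 FPKM to 41.4 and 43.3 (1.70 ± 0.10, SE). Its relative LOXL2 rose by 1.69 ± 0.24. ANGPTL1, related to ANGPTL4, went the other way, from 2.90 and 4.87 FPKM to 0.979 and 1.28 (−1.17 ± 0.27). In eKD1 0 of the 19 were called against control hypoxia, beside 0.0130% of all tested genes higher and 0.0520% lower. In eKD2 3 were called, all higher, beside 5.80% of all tested genes higher and 3.81% lower. These were NDNF (1.00 ± 0.16), a neurotrophic and angiogenic factor, PDGFC (0.91 ± 0.14), a platelet-derived growth factor, and LOX, which had 57.3 and 59.3 FPKM in eKD2 (0.45 ± 0.06). PDGFC had 22.3 and 24.0 FPKM in eKD2, also above its control normoxia libraries (17.4 and 19.0).

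**Figure D4:**
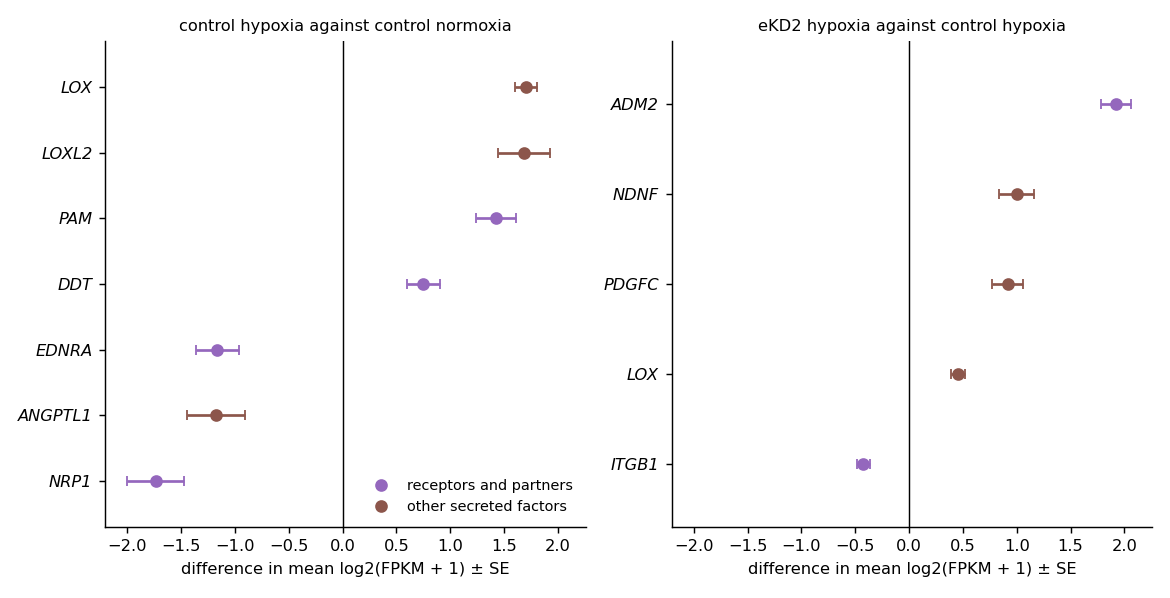
Difference in mean log2(FPKM + 1) with its SE (horizontal axes) for up to 4 called genes per list with the largest change, in control hypoxia against control normoxia (left) and in eKD2 against control hypoxia (right). LOX lies to the right of 0 in both panels, and ADM2 at 1.92 is the largest change in the right panel.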

How the data were processed

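RNA from 8 SK-N-MC libraries, 2 per group, was sequenced as single-end reads of 75 bases after poly-A selection without strand marking. The authors aligned the reads to GRCh37 with STAR and made the deposited FPKM values with cufflinks and cuffnorm. The scaling between libraries is not given in the sources used here. Nothing in the labels ties libraries of 1 group to separate experiments beyond the study's term biological duplicates.

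Groups and replicate numbers came from the sample titles. Values were analysed as log2(FPKM + 1) in R 4.3.3 by limma 3.58.1, using lmFit and an eBayes step that models a variance trend. Each comparison was fitted on its own libraries, over the 15372 genes that reached 1 FPKM in 2 or more libraries, and called at a Benjamini-Hochberg adjusted p under 0.05, two-sided. With 2 against 2 libraries the smallest exact permutation p is 0.333, so no single-gene permutation test was used. The fit was tested on simulated data for control hypoxia against control normoxia only. These had independent normal noise and fewer changed genes than were called in the real libraries, so they do not cover the other comparisons. The study's own test used read counts, which FPKM cannot replace, so limma took its place.

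The factors and lists were chosen with earlier results of these data known. The factors, LOXHD1 and at most 4 called genes per list and comparison are named, and 1 of these is not reported here. Gene positions came from GENCODE 44 on GRCh37 and promoters from RefSeq on GRCh38.p14. Alternatives were another pseudocount, other filters, 2 rescalings, a shared fit, a replicate block, no variance trend, protein-coding genes only and omission of each library.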

Additional observations from a re-analysis of the deposited data

Results flagged for a closer look

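A pair of factors lay on opposite sides of control hypoxia with the 2 guides. Over all tested genes, both eKD1 libraries were above both control hypoxia libraries in 27.6% and below both in 26.0%. For eKD2 these shares were 35.8% and 26.4%. Each share is for 1 guide, and the share of all genes on opposite sides with the 2 guides was not computed. STC1 had both eKD1 libraries below and both eKD2 libraries above the control hypoxia libraries, and eKD2 exceeded eKD1 by 1.07 on the log2(FPKM + 1) scale. For ANGPTL4 the order was the other way round, with a difference of −1.22 between eKD2 and eKD1. The direct test of the guides did not pass for either gene (adjusted p = 0.0690 and 0.0776, limma). LOXHD1 was low with both guides, at 17.6% of its control hypoxia mean in eKD1 and 12.7% in eKD2. No cause of the difference was tested.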

How the results depend on the processing

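These are the changes in the number of the 7 tested factors called, and settings not named here left it as it was, apart from omissions of a library, which follow. In control hypoxia against control normoxia, 7 became 6 (VEGFB lost) without the filter, with equal FPKM totals, with the replicate block and without a variance trend. In eKD2 against control hypoxia, 3 became 1 without the filter, 0 with the replicate block and without a variance trend, and 4 in the shared fit and among protein-coding genes. In both knockdown groups against control hypoxia, 3 became 0 without the filter and without a variance trend, 1 with the replicate block and 2 with equal FPKM totals. In eKD1 against control hypoxia, 0 became 1 in the shared fit of all 8 libraries. Between the guides, 0 became 3 in the shared fit and 3 among protein-coding genes only. Against control normoxia, eKD1 went from 7 to 0 without the filter and with the replicate block, to 5 without a variance trend and to 6 with equal FPKM totals, and eKD2 from 5 to 3 with the block, 4 without the filter and 6 in the shared fit and among protein-coding genes. The block was not used in the main fits, since same-numbered libraries shared only a number (correlations of their deviations from −0.06 to 0.13).

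Counts over all genes moved too. From the replicate block to the shared fit they ran from 2570 to 5824 in control hypoxia against control normoxia, from 0 to 761 in eKD1 and from 0 to 2601 in eKD2 against control hypoxia, and from 0 to 1391 between the guides. With 1 library left out, the fits on the libraries of a comparison called 0 factors throughout, and 0 genes of any kind where only 3 libraries remained. The same omissions within the shared fit, an alternative chosen after seeing the data, called 6 to 7 factors in control hypoxia against control normoxia, 6 in eKD1 and 5 to 6 in eKD2 against control normoxia, 0 in eKD1, 1 to 2 in eKD2 and 0 to 1 in both groups against control hypoxia, and 1 to 3 between the guides. A lone library is then assumed to vary like the others.

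Of 861 single-factor values under the alternatives, 654 kept direction and call, 173 lost the call, 20 gained it and 14 changed sign. The sign changes were all in small differences that were not called. VEGFB in eKD1 against control hypoxia ranged from −0.277 to 0.043 with 1 library left out, and was above 0 without the first control hypoxia library. ANGPTL4 in both knockdown groups was 0.070 with equal FPKM totals, ranged from −0.127 to 0.091 with 1 library left out, and was 0.091, 0.0098 and 0.059 without the first library of control hypoxia, eKD1 and eKD2. ADM between the guides was −0.035 after median-of-ratios rescaling, ranged from −0.114 to 0.136 with 1 library left out, and was −0.114 and −0.046 without the first library of eKD1 and eKD2. Equal FPKM totals moved the median change of all genes in control hypoxia against control normoxia from 0.01 to −0.19 and the share of calls that were higher from 50.3% to 28.4%, and all 7 factors stayed above 0. The depth in reads is unknown, which leaves VEGFC and EDN1 without a usable comparison.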
